A study of Mus musculus with 4 samples.

Results

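The chloride cotransporter genes Slc12a2 and Slc12a5, the vesicular glutamate transporter genes Slc17a7 and Slc17a6, and the GABA genes Slc32a1, Gad1 and Gad2 were followed along the path from neural stem cell to mature granule cell of the adult mouse dentate gyrus. These 7 genes were taken by name from the 45706 features of the count files and all 7 had UMIs (unique molecular identifiers, each counting 1 captured RNA molecule). Nuclei came from the left dentate gyri of mice of both sexes on a C57BL/6J background. The mice carried a CreERT2 driver allele active in neural stem cells and the CAG floxStop-Sun1/sfGFP reporter. They were 6 to 8 weeks old, read here as the age before tamoxifen. The weeks from tamoxifen to sampling add to that age, so age at sampling cannot be separated from the time since tamoxifen. In these mice tamoxifen turns on a green fluorescent nuclear envelope protein in the stem cells that express the driver and in all their later progeny. Nuclei bearing the tag were sorted and sequenced from the 3′ end on the 10x Genomics Chromium platform once tamoxifen lay 1, 2, 4 or 8 weeks back, which gave the libraries named w1, w2, w4 and w8. All 4 groups carry both alleles and received tamoxifen, and no untreated or Cre-negative group was analysed here. Each library is a single pool of 4 dentate gyri, and 2 time points were processed on the same day, so weeks have no replicate and were not tested against each other. The tag follows any cell in which the driver allowed Cre recombination, which includes oligodendrocyte precursors, and it does not mark a birth date within the weeks before sampling.

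Slc12a2 encodes NKCC1, which carries chloride into the cell, and Slc12a5 encodes KCC2, which carries it out. Their balance sets the chloride gradient, so that GABA depolarises young neurons and hyperpolarises or shunts mature ones, a change known as the chloride or GABA switch. Slc17a7 encodes VGLUT1 and Slc17a6 encodes VGLUT2, which load glutamate into synaptic vesicles, and mature granule cells are glutamatergic and use VGLUT1. Gad1 encodes GAD67 and Gad2 encodes GAD65, the enzymes that make GABA from glutamate, and Slc32a1 encodes VGAT, which loads GABA into vesicles and marks neurons that release it. Granule cells have long been known to hold some GAD67.

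On GRCm38 with GENCODE M21, all 7 genes lie on the plus strand. Slc12a2 spans 68.1 kb. Slc12a5 spans 38.9 kb (chr2:164960802-164999731), Slc17a7 12.2 kb (chr7:45163949-45176142) and Slc17a6 49.1 kb (chr7:51622006-51671119). Gad1 spans 48.9 kb (chr2:70553072-70602014), Gad2 71.7 kb (chr2:22622205-22693874) and Slc32a1 only 4.98 kb (chr2:158610767-158615748). Exonic and intronic reads were both counted, so a short gene offers fewer sites for capture. Where UMIs of different genes are set side by side over all libraries below, the value per kilobase of gene is given too. Ratios within a library, thinned or with a library left out are in raw UMIs. Gad1os runs antisense to the start of Gad1 and Gm14205 antisense to Slc32a1, and the study names default STARsolo settings for counting, which take reads by strand, without naming strand itself.

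The windows from 250 bases before to 50 after the RefSeq start (GRCm38.p6, plus strand) are shown for the 4 genes that carry the results. Slc12a5 and Slc17a7 rose, Slc17a6 came and went, and Gad1 peaked midway. Capitals mark CAGNTG, the E-box letters read by proneural factors such as Neurod1, searched on both strands, so that its reverse complement CANCTG is in capitals as well. The first of 2 Slc12a5 windows is chr2:164960596-164960895, the Slc17a7 window chr7:45163671-45163970, the first of 2 Slc17a6 windows chr7:51621580-51621879 and the Gad1 window chr2:70561879-70562178.
Slc12a5: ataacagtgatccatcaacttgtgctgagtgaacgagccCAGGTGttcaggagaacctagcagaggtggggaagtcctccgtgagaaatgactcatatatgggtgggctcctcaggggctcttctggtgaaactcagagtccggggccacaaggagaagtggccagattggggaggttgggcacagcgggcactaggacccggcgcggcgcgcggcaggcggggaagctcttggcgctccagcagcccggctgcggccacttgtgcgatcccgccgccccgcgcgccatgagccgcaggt
Slc17a7: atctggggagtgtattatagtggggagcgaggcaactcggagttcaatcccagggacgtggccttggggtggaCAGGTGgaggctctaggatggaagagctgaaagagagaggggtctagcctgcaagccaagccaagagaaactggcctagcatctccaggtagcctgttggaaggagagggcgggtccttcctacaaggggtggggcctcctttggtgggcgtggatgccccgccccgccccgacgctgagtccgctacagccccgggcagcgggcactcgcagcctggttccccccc
Slc17a6: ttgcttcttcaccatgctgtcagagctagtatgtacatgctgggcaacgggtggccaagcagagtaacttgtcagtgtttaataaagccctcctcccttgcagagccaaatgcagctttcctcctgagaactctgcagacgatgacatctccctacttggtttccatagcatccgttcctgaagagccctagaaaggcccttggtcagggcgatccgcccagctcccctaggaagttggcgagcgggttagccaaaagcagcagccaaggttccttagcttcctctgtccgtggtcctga
Gad1: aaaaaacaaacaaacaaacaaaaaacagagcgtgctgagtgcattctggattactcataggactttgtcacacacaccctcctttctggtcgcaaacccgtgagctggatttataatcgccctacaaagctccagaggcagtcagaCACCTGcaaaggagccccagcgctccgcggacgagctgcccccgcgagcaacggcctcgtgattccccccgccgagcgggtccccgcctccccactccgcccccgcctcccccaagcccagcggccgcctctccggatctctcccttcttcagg
The letters stood in 7 of the 8 windows given for 6 of the members, and in 51.4% of all 32851 windows in the table. The printed Slc17a6 window was the one without them. The cAMP response element TGACGTCA stood in 0 of the 8 windows and in 1.79% of all windows. These matches describe the letters alone.

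The files gave 14367 nuclei in the 13 clusters that the authors named. In the trajectory these are RGL (radial glia-like stem cells), NPC (neural progenitor cells), NB1 and NB2 (neuroblasts), GCimm1 and GCimm2 (immature granule cells), GCyoung (young granule cells), and GCmat1 and GCmat2 (mature granule cells). Astro (astrocytes), OPC (oligodendrocyte precursors), Oligo (oligodendrocytes) and Peri (pericytes) lie beside it. Libraries held 2867 to 4243 nuclei and 13227971 to 28595331 UMIs, and the medians per nucleus were 4369, 5053, 6239 and 7703.5 UMIs from w1 to w8. Pairs of libraries shared 1 to 6 barcodes. The granule cell markers Prox1, Rbfox3, Dcx and Calb1 summed to 2215 counts per 1e6 UMIs (CPM) in NB1 and 1099 CPM in GCmat1 and to 237 CPM in RGL. GCmat1 held 17 nuclei already in w1. The clusters are unequal in age, with NB1, NB2 and NPC taken from w1, w2 and w4, GCyoung from w4 and w8, and GCmat1 mostly from w8, so the library stood as a term in every test reported here unless stated.

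Slc12a2, the importer, was present at every stage and was lower in the mature cluster GCmat1 than in NB1, while GCmat2 was not below NB1 in w4. From w1 to w8 its RGL levels were 55.7, 81.3, 62.6 and 66.9 CPM. NB1 had 82.7 CPM in w1, 82.7 in w2 and 73.9 in w4, and GCimm1 65.6, 48.2 and 48.6 CPM in the same order. The NB1 values lay above those of GCimm1 in every library, whereas NB2 had 64.1, 50.5 and 38.4 CPM, close to GCimm1 or below it. GCyoung had 48.8 CPM in both w4 and w8. GCmat1 had 25.0 CPM in w4 and 32.9 in w8, each below GCyoung of the same library, and 51.2 in w1, which rests on 8 UMIs. GCmat2, the small second mature cluster, had 75.2 CPM in w4 and 55.1 in w8, above GCmat1 in both.

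Counts were summed per library and cluster (29 sums of at least 10 nuclei) and compared with edgeR's quasi-likelihood test, and a call needed a change of 1.5-fold or more with a Benjamini-Hochberg adjusted p no higher than 0.05 over 13513 genes. Clusters were drawn by the authors from the same expression values, so each p describes those clusters and not an independent split. From NB1 to GCmat1 Slc12a2 fell by 0.69 on the log2 scale (SE 0.21, adjusted p = 5.8e-03), a 1.61-fold decrease. The fall was not even. NB1 to GCimm1 gave −0.52 (adjusted p = 0.025), under the fold limit, and GCimm1 to GCimm2 gave 0.01. GCimm2 to GCyoung went the other way at 0.47 (SE 0.20, adjusted p = 0.090) and was not called. GCyoung to GCmat1 was called at −0.64 (SE 0.18, adjusted p = 0.028), and this step was lower than the one before it by 1.11 (adjusted p = 0.029). GCmat1 to GCmat2 was called upward at 0.92 (SE 0.23, adjusted p = 4.6e-03). NPC to NB1 rose by 0.66 (SE 0.24, adjusted p = 0.031), and astrocytes to RGL, where 9.58% of all genes were called, gave 1.31 (SE 0.46, adjusted p = 0.059). All of these calls were thin. The call from NB1 to GCmat1 was lost without w4 (−0.49) and that from GCmat1 to GCmat2 without w4 (0.64). The call from GCyoung to GCmat1 was lost without w2 (−0.65) or w4 (−0.44), as was its difference from the step before (−1.14 without w2, −0.93 without w4). The call from NPC to NB1 was lost without w1 (0.80), w2 (0.62) or w4 (0.62). With nuclei thinned to 2000 UMIs the rise into GCmat2 shrank to 0.11.

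Slc12a5, the exporter, rose from near nothing over the immature stages up to GCyoung, after which no step was called. It was at 0 in astrocytes, where 3 counts would be 8.95 CPM. NB1 had 2.99 CPM in w1, 5.14 in w2 and 11.2 in w4. GCimm1 had 10.7, 24.8 and 24.6 CPM in the same libraries. In each of them GCimm1 stood above NB1, and no GCimm1 value lay under the 11.2 CPM of NB1 in w4 except that of w1. GCimm2 had 56.9 CPM in w2, 46.6 in w4 and 60.0 in w8, and GCyoung 90.2 in w4 and 82.3 in w8. GCmat1 had 76.8 CPM in w1, 91.5 in w4 and 94.1 in w8, overlapping GCyoung.

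In all, 3 successive steps of Slc12a5 were called. It rose 4.59-fold from NB1 to GCimm1 (log2 2.20, SE 0.28, adjusted p = 1.2e-08) and 2.42-fold from GCimm1 to GCimm2 (log2 1.27, SE 0.19, adjusted p = 1.1e-06). GCimm2 to GCyoung added 1.97-fold (log2 0.97, SE 0.20, adjusted p = 1.7e-04), a call lost without w4 (0.60). Neither the second step (difference −0.92, adjusted p = 0.30) nor the third (−0.30, adjusted p = 0.76) was called different from the one before it. GCyoung to GCmat1 gave 0.18 (adjusted p = 0.86). Its difference from the step before was −0.80 (adjusted p = 0.16) and was not called, so a slowing after GCyoung is not shown by this test. Over the span from NB1 to GCmat1 the rise was 24.7-fold (log2 4.63, SE 0.28, adjusted p = 1.3e-19). RGL and NB1 could not be ordered (log2 −0.19, SE 0.37, adjusted p = 0.71). The low RGL values rose with library age, at 2.17, 4.23, 10.3 and 12.7 CPM from w1 to w8, beside 4.76, 25.4, 75.5 and 90.9 CPM over all nuclei of those libraries. NPC had 6 UMIs in w1, 4 in w2 (12.3 CPM) and none in w4, where 3 counts would be 39.3 CPM, so its order over libraries could not be read. The part of free RNA in the early values was not tested.

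**Figure D1:**
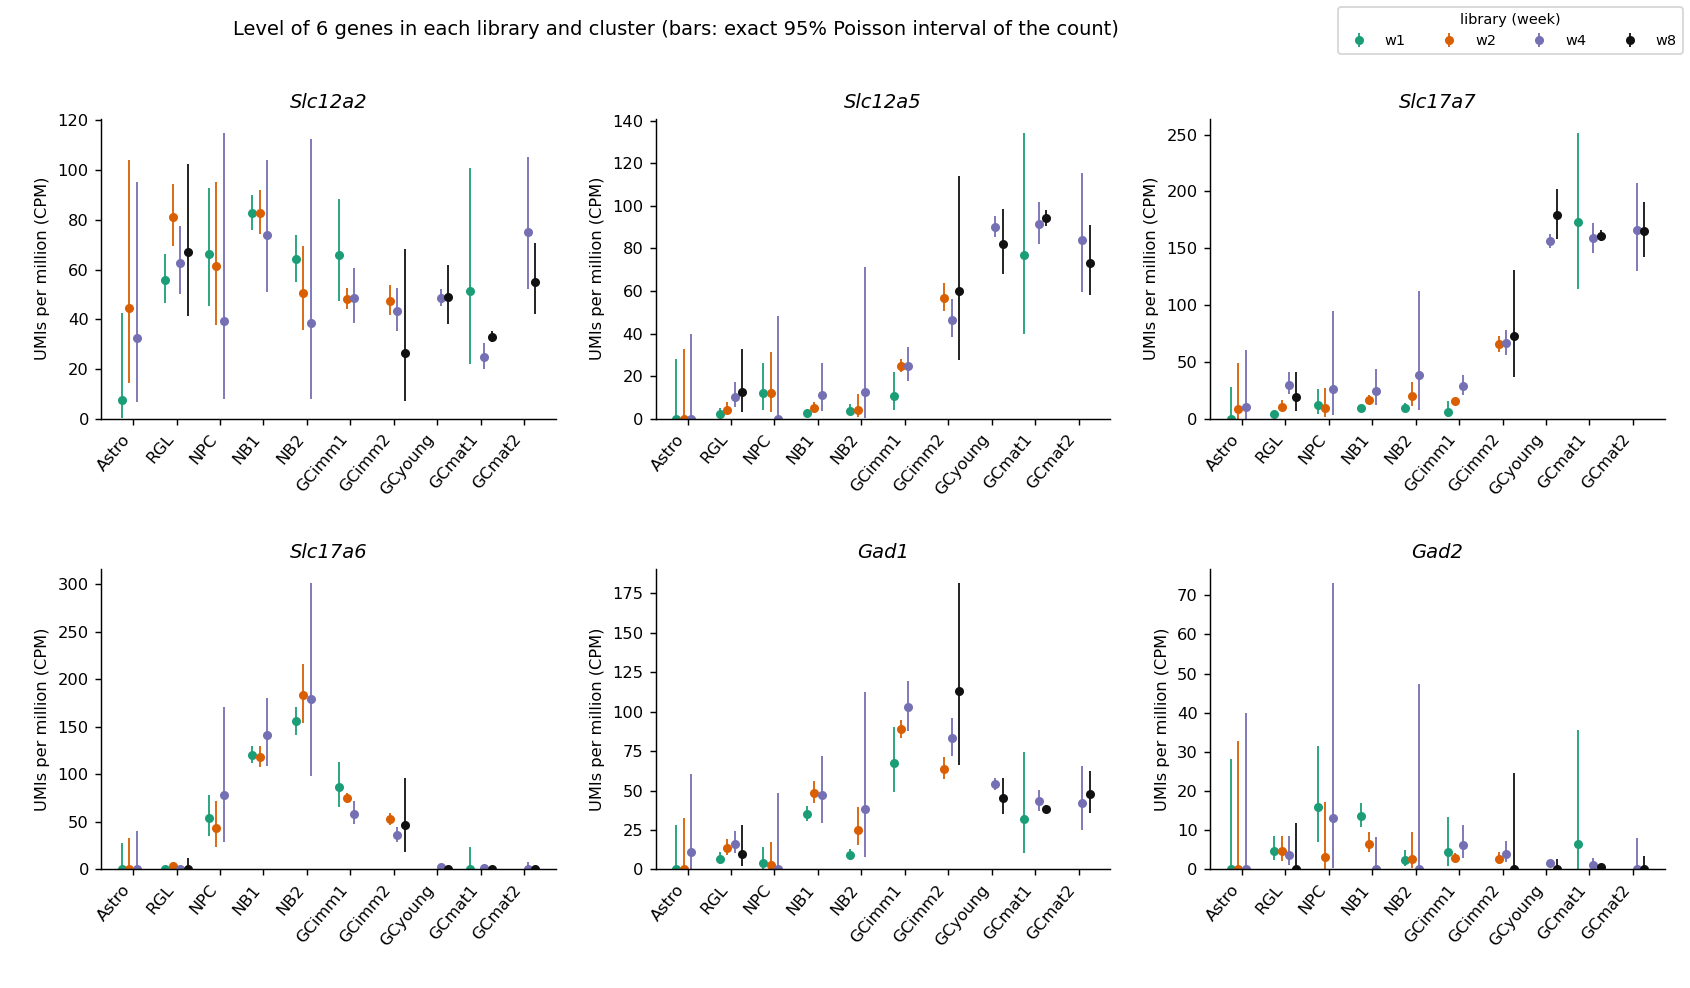
Level of 6 members (y axis, CPM) in astrocytes and each trajectory cluster (x axis), with 1 point per library and exact 95% Poisson bars that cover counting error only. Slc12a5 and Slc17a7 climb from GCimm1 or GCimm2 to GCyoung, Slc17a6 peaks in NB2 (156 to 183 CPM) and is near 0 from GCyoung on, Gad1 peaks in GCimm1 and GCimm2, and Slc12a2 stays within 25.0 to 82.7 CPM in all points drawn that have at least 10 UMIs.

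The ratio of the 2 transporters gives the export and import genes within the same nuclei, free of the scaling between clusters. Over all libraries there were 0.05 UMIs of Slc12a5 for each of Slc12a2 in NB1 (95% exact binomial interval 0.036 to 0.068) and 0.489 in GCimm1 (0.426 to 0.56). GCimm2 reached 1.18 (1.02 to 1.36), GCyoung 1.85 (1.7 to 2.01) and GCmat1 2.91 (2.7 to 3.13). The pooled ratio thus stood above 1 UMI for 1 from GCimm2 on, and the intervals of these clusters did not overlap from NB1 to GCmat1. These intervals cover counting error and not the spread between libraries. In w4 alone the interval of GCimm2 (0.815 to 1.43) spanned 1. Per kilobase of gene the values were 0.0878 in NB1, 0.856 in GCimm1, 2.06 in GCimm2, 3.23 in GCyoung and 5.09 in GCmat1, so GCimm1 was close to even on this scale. GCmat2 had 1.25 (0.949 to 1.66, and 2.19 per kilobase), below GCmat1, but with nuclei thinned to 2000 UMIs the values were 1.94 and 2.68, nearer to each other.

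Within libraries the order was the same in w1, w2 and w4, and w8 differed at GCimm2. In w1 the ratio was 0.0361 in NB1 and 0.163 in GCimm1. In w2 it was 0.0621 in NB1, 0.513 in GCimm1 and 1.2 in GCimm2. In w4 the values for NB1, GCimm1, GCimm2, GCyoung and GCmat1 were 0.152, 0.506, 1.08, 1.85 and 3.67. The w4 library thus held the whole rise in a single pool. In w8 GCimm2 had 2.25 from 9 and 4 UMIs (0.628 to 9.999), GCyoung 1.69 (1.24 to 2.30) and GCmat1 2.86. GCimm1 differed between libraries, with 0.163 (0.0618 to 0.365) in w1 under the intervals of w2 (0.442 to 0.595), and its w1 value rests on 7 UMIs of Slc12a5. At most 3 libraries hold any 2 of these clusters, so an exact permutation test over libraries could not have passed 0.05 and none was run.

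**Figure D2:**
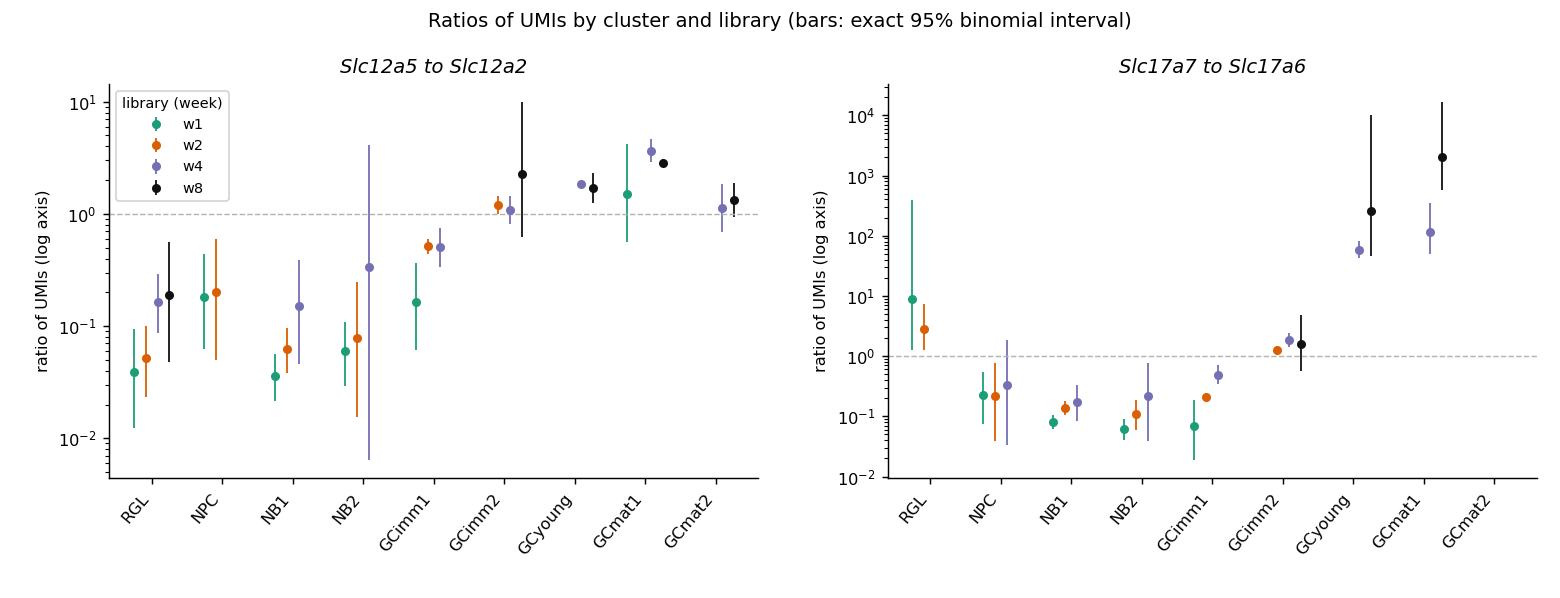
Ratio of UMIs of Slc12a5 to Slc12a2 (left) and of Slc17a7 to Slc17a6 (right) on a log axis, by cluster (x axis) and library (colour), with exact 95% binomial bars and a dashed line at 1. Points with a count of 0 in either gene are not drawn. From NB1 on, both ratios in raw UMIs first pass 1 at GCimm2, at 1.18 and 1.39 over all libraries, while per kilobase, which is not drawn, they are 0.856 and 0.917 in GCimm1 and 2.06 and 5.60 in GCimm2.

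Slc17a6 appeared in progenitors, was highest in neuroblasts and was almost gone from GCyoung on. RGL had 1 UMI in w1 (0.435 CPM), 8 in w2 (3.76 CPM) and none in w4 or w8. NPC had 54.1 CPM in w1, 43.1 in w2 and 78.6 in w4, and NB1 121, 118 and 141 CPM in the same order. NB2 had 156, 183 and 179 CPM, and every neuroblast sum lay above every progenitor sum. GCimm1 had 87.0, 74.6 and 58.5 CPM and GCimm2 52.9 in w2, 36.2 in w4 and 46.6 in w8 (7 UMIs). GCyoung had only 2.66 CPM in w4 and 0.697 in w8 (1 UMI), GCmat1 7 UMIs in 3356 nuclei (0.24 CPM) and GCmat2 none, where 3 counts would be 1.92 CPM. No sum of GCyoung overlapped one of GCimm2.

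The onset was called as 2 steps, from RGL to NPC (log2 4.75, SE 0.52, adjusted p = 1.2e-10) and from NPC to NB1 (log2 1.49, SE 0.27, adjusted p = 1.4e-05). The first of these depends on 9 UMIs in RGL and became 7.21 without w2 and 4.12 without w1. NB1 to GCimm1 fell by 0.64 (SE 0.17, adjusted p = 6.5e-03), a call lost without w2 (−0.74) or w4 (−0.50), and GCimm1 to GCimm2 gave −0.41 (adjusted p = 0.23). GCimm2 to GCyoung brought the loss, a 13.5-fold decrease (log2 −3.75, SE 0.33, adjusted p = 7.8e-13). That step was lower than the one before by 3.34 (SE 0.44, adjusted p = 2.5e-07). Without w4 the step to GCyoung was −5.48, where GCyoung rests on the single UMI of w8. From NB1 to GCmat1 the decrease was 129-fold (log2 −7.01, SE 0.51), with −5.76 without w8 and −8.96 without w4.

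Slc17a7 rose from GCimm2 on and was level from GCyoung to GCmat2. NB1 had 9.90 CPM in w1, 16.4 in w2 and 24.6 in w4, and GCimm1 had 6.11, 15.5 and 28.9 CPM, which overlapped. GCimm2 had 65.8 CPM in w2, 66.5 in w4 and 73.3 in w8 (11 UMIs). GCyoung had 157 CPM in w4 and 179 in w8, and GCmat1 173 in w1, 159 in w4 and 161 in w8. All GCimm2 sums stood above all GCimm1 sums, and all GCyoung sums above all GCimm2 sums. From w1 to w8 the RGL levels were 3.91, 10.8, 30.2 and 19.1 CPM, beside 10.4, 26.8, 129.9 and 159 CPM over all nuclei of those libraries. The GCimm1 values thus lay within the range of stem cells, which should lack the gene. Whether they hold free RNA was not tested.

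NB1 to GCimm1 gave a log2 change of 0.13 (SE 0.25, adjusted p = 0.85), which turned to −0.025 without w4. GCimm1 to GCimm2 was a 3.82-fold rise (log2 1.93, SE 0.21, adjusted p = 5.6e-10) and GCimm2 to GCyoung a 2.52-fold rise (log2 1.33, SE 0.21, adjusted p = 1.5e-06). The step to GCimm2 exceeded the one to GCimm1 by 1.81 (SE 0.41, adjusted p = 2.9e-03), a call lost without w2 (1.30). GCyoung to GCmat1 gave 0.10 (adjusted p = 0.95), lower than the step before by 1.24 (adjusted p = 0.014, lost without w4 at −1.68 or without w8 at −1.05). Thus Slc12a5 was called at NB1 to GCimm1 and Slc17a7 was not, although the difference between the 2 genes at that step was not tested. There were 0.107 UMIs of Slc17a7 for each of Slc17a6 in NB1 (0.0895 to 0.128) and 0.228 in GCimm1. The ratio was 1.39 in GCimm2 (1.21 to 1.6) and 63.8 in GCyoung (47.3 to 88.4). Slc17a7 is the shorter gene, and per kilobase these became 0.432, 0.917, 5.60 and 257. In w4 it was 0.175, 0.495, 1.83 and 58.9 in these clusters. GCyoung of w8 had 257 UMIs to 1 (45.7 to 10190), so the pooled GCyoung value rests on w4. In RGL the ratio was 8.78, from 79 and 9 UMIs, before it was 0.234 in NPC. Per kilobase these were 35.4 and 0.943, so NPC was close to even on that scale.

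Gad1 was the GABA gene of the trajectory, with 4459 UMIs over all nuclei against 280 for Gad2 and 53 for Slc32a1. Per kilobase of gene these were 91.1, 3.91 and 10.6 UMIs. RGL had 6.52, 13.6, 16.2 and 9.56 CPM from w1 to w8. NPC had 2 UMIs in w1 (4.01 CPM), 1 in w2 (3.08 CPM) and none in w4. NB1 had 35.2 CPM in w1, 48.7 in w2 and 47.1 in w4. GCimm1 had 67.2, 89.0 and 103 CPM, above NB1 in every library. GCimm2 had 63.8 CPM in w2, 83.3 in w4 and 113 in w8, the last from only 28 nuclei. GCyoung had 54.0 CPM in w4 and 45.3 in w8. GCmat1 had 32.0 CPM in w1, from only 17 nuclei, 43.3 in w4 and 38.5 in w8. The level in mature cells thus lay near that of NB1 and above that of stem cells.

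NPC to NB1 rose 14.5-fold (log2 3.86, SE 0.52, adjusted p = 2.2e-08), against 3 UMIs in NPC, and NB1 to GCimm1 rose 1.99-fold (log2 0.99, SE 0.16, adjusted p = 2.7e-06). GCimm1 to GCimm2 gave −0.22 (adjusted p = 0.49), lower than the step before by 1.21 (SE 0.26, adjusted p = 1.5e-03, lost without w2 at −1.14). None of the later steps was called singly (−0.38 to GCyoung, −0.25 to GCmat1 and 0.08 to GCmat2). RGL to GCmat1 was 4.32-fold up (log2 2.11, SE 0.23, adjusted p = 1.0e-11) and NB1 to GCmat1 gave 0.14 (adjusted p = 0.64). The fall from RGL to NPC (log2 −1.89, SE 0.69, adjusted p = 0.032) was called but lost without w2 (−1.58) or w4 (−1.56), and it was −2.75 without w1. Interneuron markers were checked beside it. Of 15 listed, 14 were measured, and their sum was 92.6 CPM in GCimm1, 101 in NB1 and 2571 in GCmat1. Adarb2 alone gave 2566 CPM of the last, and in GCmat1 Dlx2 and Dlx5 were at 0.

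Slc32a1 stayed out of the fit for its low counts. Its 53 UMIs lay in 52 nuclei, and in no trajectory cluster of any library did it pass 2.46 CPM. NB1 and GCimm1 had 14 UMIs each. Gad1 was thus found in many nuclei of the trajectory and the vesicular GABA transporter in few. A low count is no sign of absence.

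Taking all 6 tested members side by side, the steps called 17 member changes. RGL to NPC called 2 of 6, where 29.5% of all genes were called, and NPC to NB1 called 3 (29.3%). NB1 to NB2 called 2 (2.94%), NB1 to GCimm1 3 (12.5%), GCimm1 to GCimm2 2 (9.43%) and GCimm2 to GCyoung 3 (18.9%). GCyoung to GCmat1 called 1 (3.85%) and GCmat1 to GCmat2 called 1 (7.3%), Slc12a2 in both. Over the longer spans RGL to NB1 called 3 (45.1%), NB1 to GCmat1 4 (40.1%) and RGL to GCmat1 3 (49.5%). Differences between successive steps were called for 2 members at GCimm2 (3.56%), 1 at GCyoung (5.47%) and 2 at GCmat1 (4.21%). DESeq2, run on the same sums, made no call for 6 of the 17, namely Slc12a2 from NPC to NB1 and from GCyoung to GCmat1, Slc12a5 from GCimm2 to GCyoung, Slc17a6 from NB1 to GCimm1, Gad1 from RGL to NPC and Gad2 from NB1 to NB2. Of the differences between steps it called that of Slc17a6 alone, as did edgeR without the library term.

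**Figure D3:**
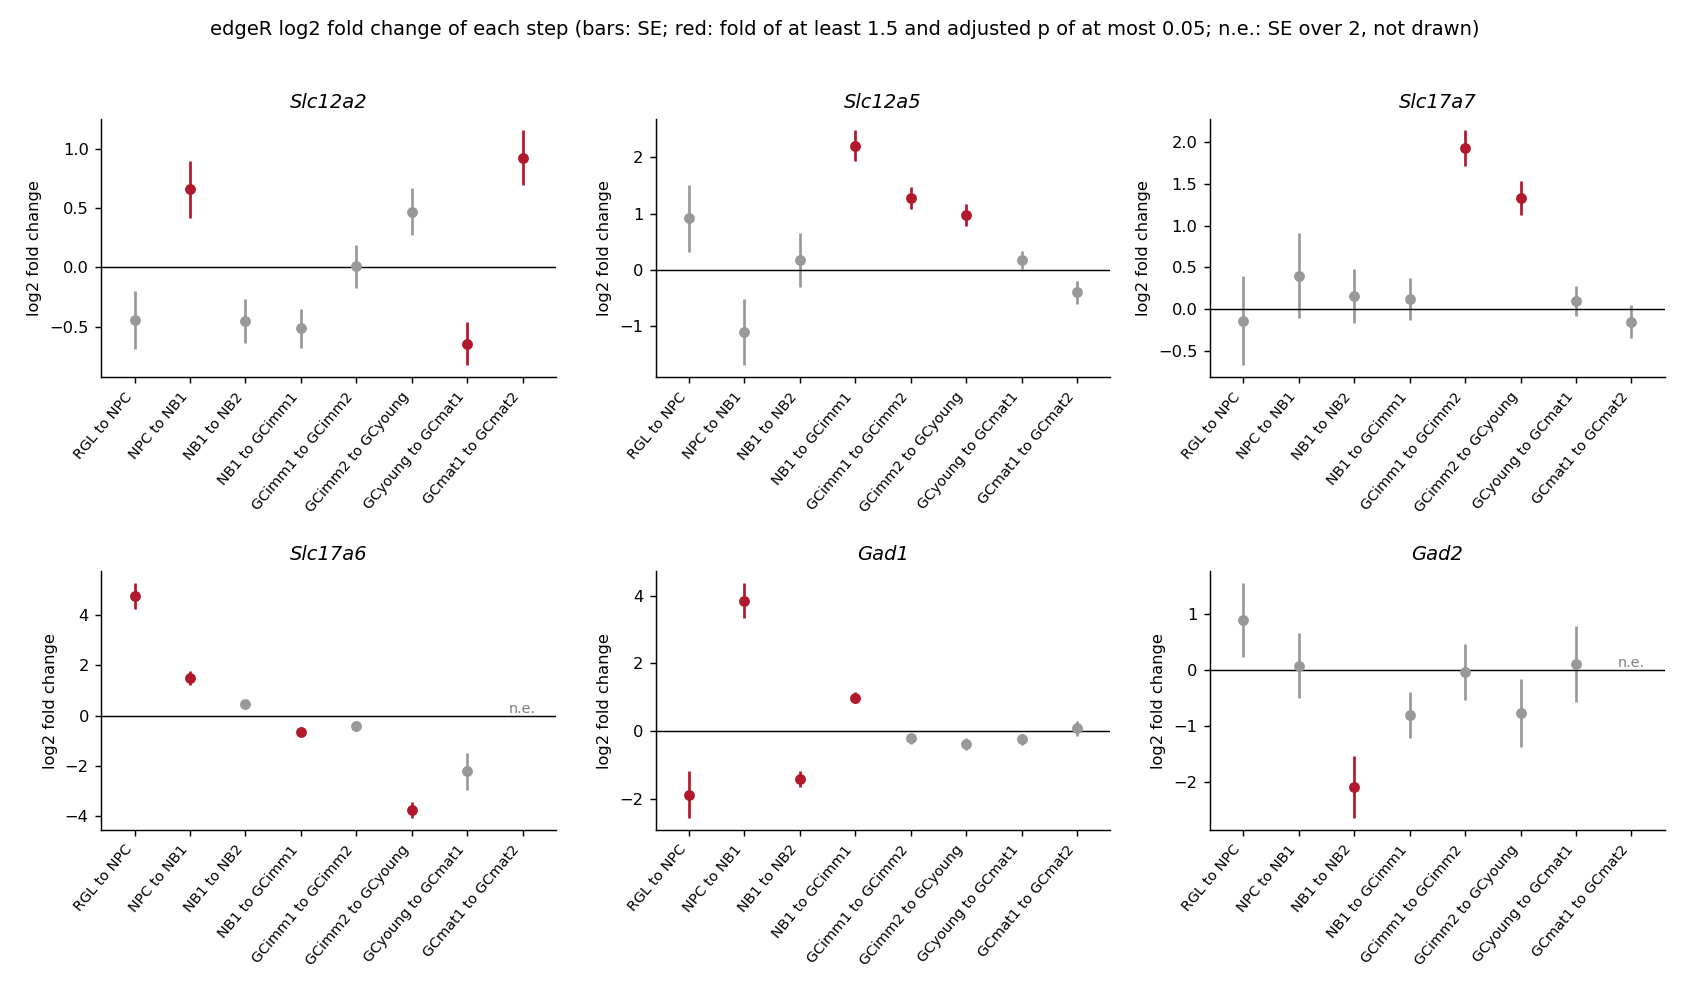
Log2 fold change of each step between neighbouring clusters (x axis) for 6 members, from edgeR, with bars of 1 SE. Red points passed a fold of at least 1.5 and an adjusted p of at most 0.05, and a step marked n.e. has an SE over 2 and is not drawn. Slc12a5 has 3 red steps in a row from NB1 to GCyoung, and Slc17a7 has 2, from GCimm1 to GCyoung.

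The pseudo-time deposited by the authors places nuclei along the path, and levels were taken in bins of width 1 with at least 20 nuclei. The study left GCmat2 and GCmat1 nuclei with a ventral signal out of it, and 220 GCmat1 nuclei had no value. The late bins therefore do not cover all mature nuclei. The pseudo-time was built from expression, so the bins describe an order and no test was made. No bin between 3 and 7 or between 22 and 24 had enough nuclei. Slc17a6 was at 0 in the bin centred on 7.5, at 81.8 CPM at 8.5 and at its highest, 369 CPM, at 9.5. It then declined to 92.5 CPM at 14.5, 66.4 at 19.5 and 25.2 at 21.5, and was at 7.99 CPM at 24.5. The rise was thus steep, and the pooled decline was fast at first with a long tail. In NB1 nuclei alone the level was 322 CPM from 9 to 10, 194 from 10 to 11 and 122 from 11 to 12. NB2 nuclei had 282 CPM from 10 to 11 and 235 from 11 to 12. The height of the peak rests on w1, with 449 CPM at 9.5 against 209 in w2. In w4 the highest bin was 10.5, with 251 CPM, and without w1 the pooled peak was 233 CPM. Relative to its peak the level fell later in w2 and w4 than in w1.

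Slc12a5 lay at 13.9 CPM or below up to 16.5, then at 27.5 CPM at 17.5, 49.5 at 19.5 and 74.9 at 21.5. It stayed over 50% of its highest level from 19.5 on. Slc17a7 was still at 28.7 CPM at 18.5, reached 40.7 at 19.5, 84.1 at 20.5 and 109 at 21.5, and stayed over 50% of its highest level from 21.5 on. By this measure Slc12a5 led by 2 bins over all libraries and within w2 (18.5 against 20.5), but in w4 both passed at 20.5. Within w8 both passed at 25.5, but its 9 bins hold too few immature nuclei (28 in GCimm2) to order the genes. Without w2 the lead was 1 bin (20.5 against 21.5), and with bins of width 2 both passed at 21, so the lead rests on w2 and on the bins.

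Gad1 was at 26.2 CPM at 13.5, 62.5 at 14.5 and 104 at 16.5, then at 44.8 at 21.5 and 63.4 at 24.5. Its peak came before the rise of Slc17a7 and overlapped the tail of Slc17a6. Slc12a2 had 108 CPM at 11.5, its highest bin of width 1, but with bins of width 2 its highest was 134 CPM at 3, in 70 nuclei of mostly RGL. It was at 37.0 CPM at 18.5 and 74.6 at 24.5, which in w4 and w8 came with the GCyoung nuclei.

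**Figure D4:**
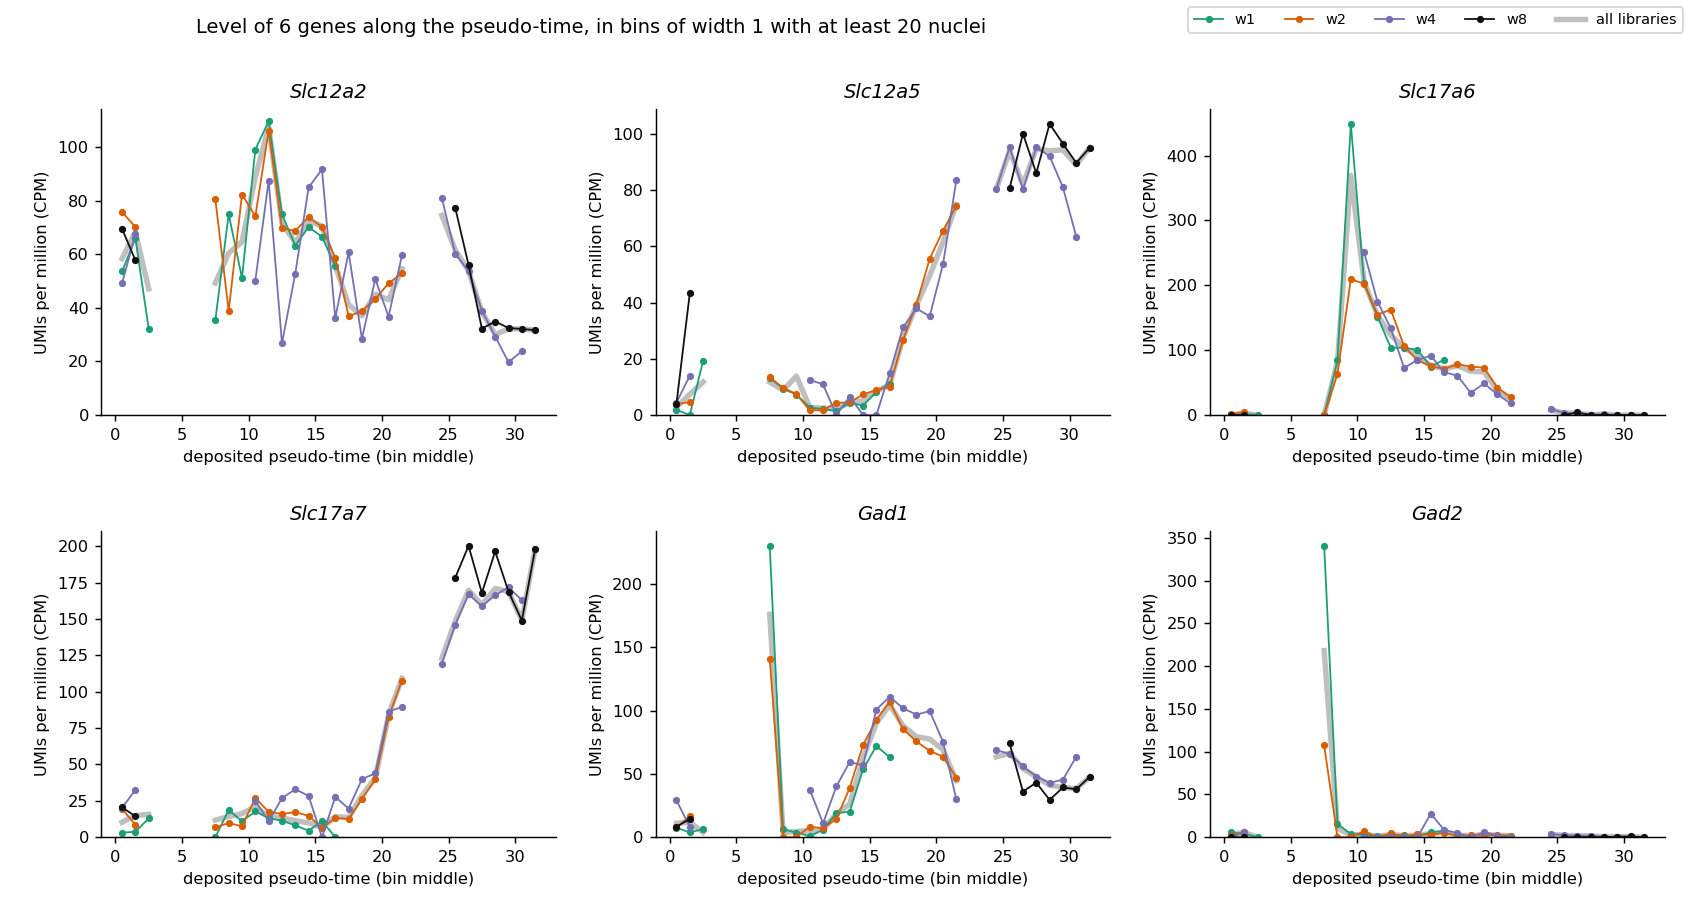
Level of 6 members (y axis, CPM) against the middle of each pseudo-time bin (x axis) in each library (coloured lines) and over all libraries (grey), with gaps where a bin has under 20 nuclei. Slc17a6 peaks at 9.5 in the pooled data, Gad1 at 16.5 after an isolated high bin at 7.5, and Slc12a5 and Slc17a7 rise between 17.5 and 25.5.

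The isolated bin at 7.5, with 176 CPM of Gad1, came from a small set of NB1 nuclei. It was picked out after its values were seen. Of 2578 NB1 nuclei, 19 had a pseudo-time under 8, between 3.18 and 7.95, and the next NB1 nucleus stood at 8.55. They were 12 nuclei in w1, 5 in w2 and 2 in w4. They had 855 CPM of Gad1 and 1057 CPM of Gad2, against 34.4 and 2.31 CPM in the other 2559 NB1 nuclei. Progenitors of the same pseudo-time range had 2.80 CPM of Gad1 and 14.0 of Gad2 in 82 nuclei. Slc32a1 was at 71.3 CPM (6 UMIs) and Slc17a6 at 0 in the 19.

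Gad1 UMIs were found in 15 of the 19 and Gad2 UMIs in 13. Of all 14 nuclei in the data with at least 3 Gad2 UMIs, 12 were among them. The interneuron lineage genes Dlx1 (297 CPM), Dlx2 (71.3), Dlx5 (119) and Dlx6 (59.4) were high in them, as were Erbb4 (4526), Adarb2 (3041), Nxph1 (119) and Maf (59.4). Some of these rest on few nuclei, Dlx6 on 5 UMIs in 3 nuclei, Nxph1 on 10 in 3 and Maf on 5 in 2. The other 6 interneuron markers examined, Lhx6, Sst, Pvalb, Vip, Npy and Ndnf, were at 0 in the 19, where 3 counts would be 35.6 CPM. Dlx1 and Dlx2 were also found in NPC as a whole, at 63.5 and 19.7 CPM. In the 82 NPC nuclei with a pseudo-time under 8 they were at 8.41 CPM (3 UMIs) and 2.80 CPM (1 UMI). In the other NB1 nuclei Dlx1 was at 1.02 CPM and Erbb4 at 7.21. The granule cell gene Prox1 was at 202 CPM in the 19 and 872 in the others, Rbfox3 at 47.5 against 893, and Dcx, which all young neurons share, at 796 against 452. These nuclei thus held 89 of the 114 Gad2 UMIs of NB1.

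The calls for Gad2 rested on them. Gad2 fell from NB1 to NB2 (log2 −2.09, SE 0.56, adjusted p = 0.022) and rose from RGL to NB1 (log2 0.96, SE 0.42, adjusted p = 0.049), and without the 19 nuclei these became 0.039 and −0.94, with no call. The first was also lost without w2 (−2.25), and the second without w2 (1.12) or w8 (0.92). By cluster, Gad2 had 11 UMIs in 211 NPC nuclei (6.01 to 21.5 CPM), and it was at 10.5 CPM in NB1, 2.43 in NB2 and 3.40 in GCimm1, against 4.26 in stem cells. Gad1 in NB1 fell only from 40.7 to 34.4 CPM without the 19, and its step to NB2 stayed called at −1.18.

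NB2 differed from NB1 in Gad1 in the direction opposite to Slc17a6. Gad1 had 9.05 CPM in w1, 25.2 in w2 and 38.4 in w4 (3 UMIs) in NB2, below NB1 of the same library in each (log2 −1.43, SE 0.24, adjusted p = 4.0e-05, lost without w1 at −0.84). Slc17a6 gave 0.45 (adjusted p = 0.23). The clusters cover much the same pseudo-time, and the gap was also present at matched bins pooled over libraries. From 13 to 14 Gad1 was at 33.7 CPM in NB1 and 10.5 in NB2, and from 14 to 15 at 76.6 (65.8 to 88.7) and 24.0 (15.2 to 36.0). Slc17a6 was at 92.7 CPM in NB1 (82.1 to 104) and 125 in NB2 (107 to 145) from 13 to 14, and at 83.5 and 119 CPM from 14 to 15. Its widest gap was from 11 to 12, with 122 CPM in NB1 and 235 in NB2. These Slc17a6 bins were not split by library, and w1 gave 560 of 726 NB2 nuclei but 1492 of 2578 NB1 nuclei. Between 12 and 15 Gad1 was at 38.2 CPM in NB1 and 9.81 in NB2 in w1, 52.3 and 33.0 in w2, and 57.5 and 59.9 in w4. The intervals overlapped in w2 (44.2 to 61.5 in NB1, 18.8 to 53.6 in NB2). The w4 pair could not be ordered, as NB2 there had 3 UMIs in 12 nuclei. The matched gap in Gad1 thus stood clear of counting error in w1 alone.

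**Figure D5:**
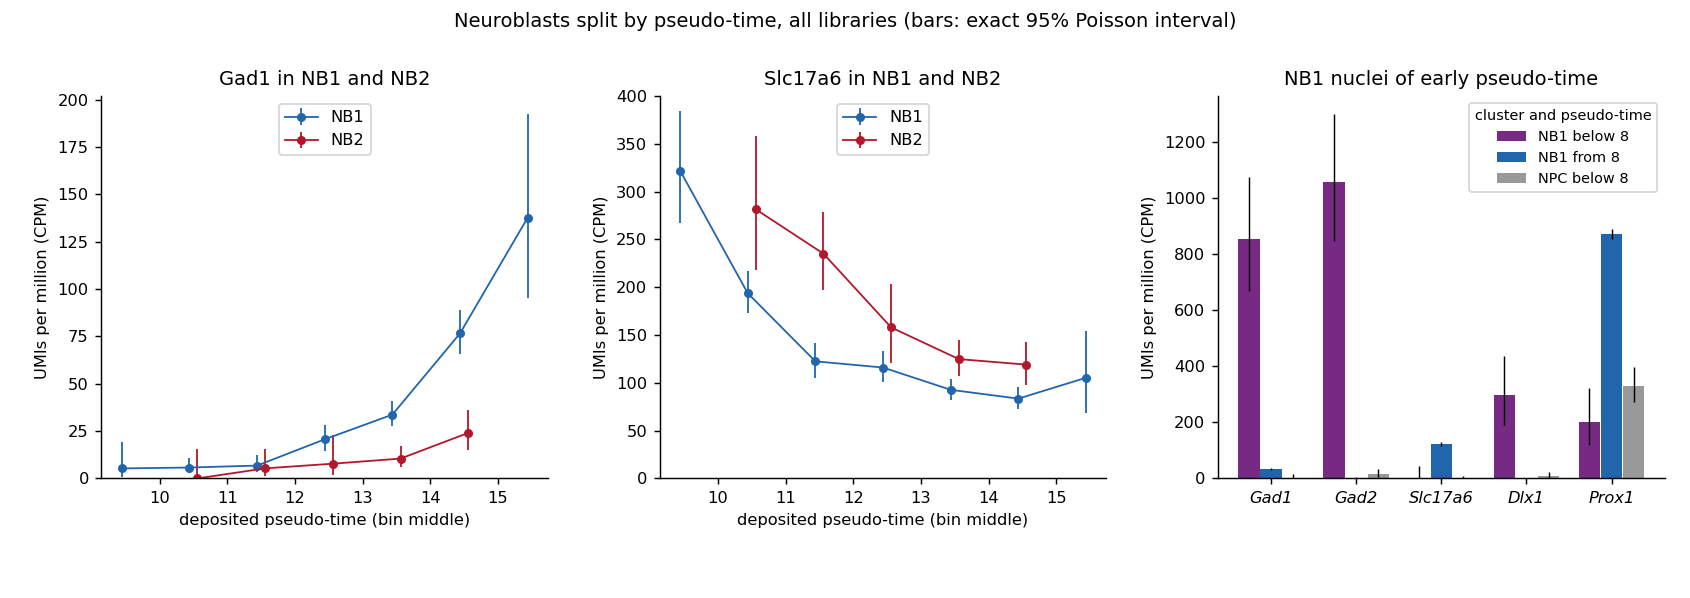
Gad1 (left) and Slc17a6 (middle) in NB1 and NB2 nuclei by bin of pseudo-time (x axis), and 5 genes in NB1 nuclei under and over a pseudo-time of 8 and in early NPC nuclei (right), all in CPM with exact 95% Poisson bars over all libraries. NB2 lies under NB1 in Gad1 from 12 on and over it in Slc17a6, and the 19 early NB1 nuclei have 855 CPM of Gad1 and 1057 of Gad2.

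Shares of nuclei show how far both transmitter groups met in single nuclei. A nucleus was counted as glutamate-positive with at least 1 UMI of Slc17a7 or Slc17a6, and as GABA-positive with at least 1 of Gad1, Gad2 or Slc32a1. Both were found in 3.88% of NB1 nuclei, 12.4% of GCimm1, 22.2% of GCimm2, 23.7% of GCyoung and 19.2% of GCmat1. In RGL, taken as a low reference, the share was 0.649%, although RGL was not free of Gad1 (11.3 CPM, against 3.28 in NPC). Median UMIs were 4091 in RGL, 4057.5 in NB1, 5045.5 in GCimm1, 6979 in GCimm2, 7458 in GCyoung and 8138 in GCmat1. Thinned to 2000 UMIs per nucleus the shares were 1.21% in NB1, 2.09% in GCimm1, 2.66% in GCimm2, 2.53% in GCyoung and 1.70% in GCmat1, against 0.219% in RGL. The order past NB1 is not read from these shares, which spanned 1.70% to 2.66% once depth was equal.

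Shares of GABA-positive nuclei were also taken among nuclei with and without a glutamate gene, and their differences were not tested. Among thinned GCimm1 nuclei 13.4% of those with a glutamate gene and 15.4% of those without had a GABA gene, and the values were 14.1% and 14.3% in GCimm2. In thinned nuclei they were 5.79% and 7.98% in NB1, 8.68% and 10.3% in GCyoung and 6.07% and 7.07% in GCmat1. In w4 alone the GCimm1 values lay further apart, at 12.3% and 21.02%, with 8 nuclei positive for both groups. Thinned RGL had 6.98% and 2.78%, the first from 3 nuclei. Alone, Gad1 was found in 33.3% of GCimm1 nuclei and 26.2% of GCmat1 nuclei, and 14.3% and 6.73% when thinned, against 3.97% and 1.90% in RGL. For Slc12a5 the thinned shares were 0.885% in NB1, 4.31% in GCimm1, 9.60% in GCimm2, 16.9% in GCyoung and 17.1% in GCmat1, with 1.09% in RGL, the same order as its levels.

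The other chloride and cation-chloride genes did not move as a group. Of 33 listed, 26 were tested, and from NB1 to GCmat1 8 rose and 8 fell (20.2% and 19.9% of all genes did), with a median of −0.04 equal to that of all genes (−0.04). Slc4a4, a sodium bicarbonate cotransporter, rose by 3.53 (126 CPM in NB1, 1038 in GCmat1) and was lower in GCmat2 by 2.64 (185 CPM). Slc4a10, a sodium-driven chloride bicarbonate exchanger, rose by 1.92 (152 to 452 CPM). Clcn5, an endosomal chloride/proton exchanger, was called at −3.04 (354 to 23.5 CPM), having gone up by 3.09 from RGL to NB1. Neto2, an auxiliary subunit that also binds KCC2, was called at −2.57 (46.2 to 6.24 CPM), opposite in direction to Slc12a5. Of the kinases that act on both cotransporters, Stk39, which encodes SPAK, rose from NB1 to GCimm1 by 0.77 (82.7 to 136 CPM). From NB1 to GCmat1 Stk39 rose and Wnk2 (196 to 89.2 CPM) and Wnk3 fell. Wnk2 was also called upward from NB1 to NB2, by 0.61. Slc12a4, which encodes KCC1, was at 26.6 CPM in RGL and 0.925 in GCmat1 (log2 −3.67).

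Receptor genes that answer to GABA and glycine came next. Of 12 listed 7 were tested, and 5 rose (20.2% of all genes did), none fell and 2 were not called from NB1 to GCmat1 (median 2.62, against −0.04 for all genes), while from GCimm1 to GCimm2 5 rose (6.52% of all genes did; median 0.75, against −0.02). Gabra5 and Glra2 rose with the first step of Slc12a5, from NB1 to GCimm1, by 2.28 (40.8 to 242 CPM) and 2.12 (39.3 to 166 CPM). Glra2, the glycine receptor subunit of immature neurons, then fell by 1.12 from GCimm2 to GCyoung and by 1.33 to GCmat1 (33.1 CPM). Gabra4, a subunit of mature receptors, rose by 1.66 from GCimm2 to GCyoung. Gabrd, the delta subunit of extrasynaptic receptors, was up 4.02 from NB1 to GCmat1 but stood at only 28.8 CPM there.

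In the glutamate list 15 of 16 genes were tested, and from NB1 to GCmat1 5 rose and 7 fell (median −0.22, against −0.04 for all genes, of which 20.2% rose and 19.9% fell). Slc30a3, which encodes the vesicular zinc transporter of mossy fibre terminals, rose from GCimm1 to GCimm2 by 2.65 (3.40 to 23.1 CPM), the step at which Slc17a7 rose. Slc1a1, the neuronal glutamate uptake carrier, rose by 2.10 from NB1 to GCmat1 (48.1 to 166 CPM). The glial uptake gene Slc1a3 fell by 4.15 from RGL to NB1, and Glul, which encodes glutamine synthetase, fell by 2.66 from NB1 to GCmat1. Of 12 genes of GABA synthesis, transport and breakdown, 10 were tested, and 2 rose and 2 fell from NB1 to GCmat1 (median −0.28), a share close to that of all genes. Slc6a11, a GABA uptake carrier, rose by 1.48 from NB1 to GCimm1, with Gad1, and fell by 1.48 from GCimm2 to GCyoung and by 1.56 to GCmat1. Of 13 genes of other transmitters only Slc18a2 and Slc6a9 had counts enough to be tested. Slc18a2, the vesicular monoamine transporter, rose from NB1 to NB2 by 1.12 (9.73 to 22.7 CPM).

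The genes whose levels followed each member most closely were taken by Pearson's r of log2(CPM + 1) over the 29 sums, which share libraries and depth. For Slc12a5 they were Slc8a2 (0.96), Clvs2 (0.94), Unc80 (0.93), Cemip (0.93) and Tgfbr3 (0.92). For Slc17a7 they were Dock10 (0.96), Baiap2 (0.95), Cacng3, Tmeff2 and Tenm1 (each 0.93). For Slc17a6 they were Sema3c (0.95), Sox11 (0.94), Serping1 (0.94), Sh3bp2 (0.93) and Brsk2 (0.93). Gad1 was followed by the sodium channel genes Scn2a1 (0.95) and Scn1a (0.93), then Clstn2 and Adamts17. Slc12a2 had weaker neighbours, Zfp738 (0.83), Sec23ip (0.81), Morf4l1, the chloride channel family gene Clcn3 (0.80) and Chic1, and Gad2 weaker still, with Mmgt1 (0.80) first and then Haus4, Lrrc63, Cep72 and an unnamed clone-derived gene model (0.74). Among the members, Slc12a5 and Slc17a7 had r of 0.88, Slc12a5 and Gad1 0.77, and Slc12a5 and Slc12a2 0.37.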

How the data were processed

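The 4 libraries, with 14367 sorted nuclei, were analysed from the files that the authors deposited. These hold whole UMI counts for 45706 features. They also hold a table of log2 expression in which the authors divided counts by scran size factors and added 1 before the log. It gives the library and cluster of each nucleus. For part of the nuclei it also gives the pseudo-time, a score in arbitrary units deposited by the authors. The study aligned reads to GRCm38 (mm10 in the submitters' processing notes) with STARsolo 2.7.4a, excluded reads that map to several places, counted exons and introns, and removed doublets and nuclei of low quality. It also left out 2 groups of nuclei from week 4, and only nuclei with a column in the deposited table were used here. No doublet caller was run again.

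Levels were given per 1e6 UMIs of the nuclei they were taken from (CPM), with exact Poisson intervals, and shares of nuclei have exact Clopper-Pearson intervals, all at 95%. They cover counting error only, and a count of 0 allows up to 3 counts. Thinning drew 2000 UMIs per nucleus, which left out 141 nuclei. Counts were summed per library and cluster, with at least 10 nuclei, and the 29 sums were fitted together in edgeR 4.0.16 (glmQLFit and glmQLFTest after TMM and filterByExpr, cluster and library as terms, 16 residual degrees of freedom, R 4.3.3). Of the members, 6 passed the filter on low counts. A call needed a change of 1.5-fold or more with a Benjamini-Hochberg adjusted p no higher than 0.05, and a difference of successive steps needed the p alone. Pools hold several animals, so p-values measure the spread between sums, not between animals. In simulated data for GCimm2 to GCyoung, with 50 genes planted per fold among 13111, 9 were recovered at a fold of 1.5, 30 at 2, 34 at 3 and 45 at 4. In the same run 16 genes without a planted change were called as well. DESeq2 1.42.0, RLE factors, no library term, no filter, other folds and minimum numbers of nuclei, thinning, the deposited log2 values and each library left out served as alternatives. Members, gene lists, marker lists and tests were chosen with earlier results of these data known. Named genes were all members, the 5 genes most like each member, and the list genes with the largest called changes, a few of which are not reported here. Promoters came from RefSeq and gene models from GENCODE M21. The analysis also used Python 3.11.15, numpy 2.4.6, pandas 2.3.3, scipy 1.17.1 and matplotlib 3.10.9.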

Additional observations from a re-analysis of the deposited data

Results flagged for a closer look

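Some values lay above the median of the trajectory in clusters that no comparison used. Slc12a2 was at 642 CPM in Oligo (95% exact Poisson interval 540 to 757, 141 UMIs in 45 nuclei), with a UMI in 77.8% of the nuclei, against a median of 54.9 CPM over astrocytes and the trajectory clusters. It was 788 CPM in w2, 578 in w4 and 539 in w8, so each library showed it. The oligodendrocyte markers summed to 15442 CPM in Oligo and to 71.1 to 119 CPM in the trajectory from RGL to GCmat2. Slc12a2 in Peri was at 107 CPM (74.4 to 150), with 265 CPM in w1 and 37.7 in w2. A single nucleus gave 20 of the 26 UMIs in w1, and thinned to equal depth Peri was at 58.3 CPM. Gad1 in OPC was at 69.6 CPM (51.1 to 92.6, 47 UMIs in 131 nuclei), against a median of 39.9 CPM over the same clusters, and at 23.0, 92.4, 93.9 and 55.7 CPM from w1 to w8. It lay within the range of the trajectory, where GCimm1 had 89.6 CPM and GCimm2 70.9. The interneuron markers summed to 9914 CPM in OPC, nearly all of it Erbb4 (3826 CPM), Nxph1 (3667) and Adarb2 (2374), while Dlx1, Dlx2, Dlx5, Dlx6 and Lhx6 were at 0. Differences between these clusters and the rest were not tested.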

How the results depend on the processing

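No paired analysis was possible because each week is 1 pool and the replicate numbers pair no samples, but the library stood as a block in every fit except the alternative without that term. The 17 member calls between neighbouring clusters became 11 with DESeq2, 11 at a fold of at least 2 and 11 to 18 with a library left out, and the 5 calls between successive steps became 1 with DESeq2, 1 without the library term, 3 with thinning and 2 to 5 with a library left out. The 10 calls over longer spans became 8 to 11 in number, and those of Slc12a2 from NB1 to GCmat1 and of Gad2 from RGL to NB1 were each lost in some settings. RLE factors moved the median of all genes by −0.12 from NPC to NB1 and by −0.16 from RGL to GCmat1. Values that turned were not called, except those of Gad2. Gad2 became 0.039 from NB1 to NB2 and −0.94 from RGL to NB1 without the early NB1 nuclei, and −0.0053 in the latter with the deposited log2 values. Slc17a7 from NB1 to GCimm1 became −0.12 with thinning and −0.025 to 0.18 with a library left out. From GCyoung to GCmat1 it was −0.041 without the library term, −0.049 with thinning and −0.00016 with log2 values. Slc12a5 from RGL to NB1 was 0.0032 with log2 values and −0.34 to 0.12 with a library left out. Gad1 from NB1 to GCmat1 was −0.21 with thinning and −0.10 to 0.24 with a library left out.

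Thinning gave 132 CPM for Slc17a7 in GCmat2, 83.2 for Gad1 in GCimm1, 4.85 for Gad2 in NPC and a chloride ratio of 2.68 in GCmat1. Leaving out a library gave 88.7 to 93.7 CPM for Slc12a5 in GCmat1 and 156 to 183 for Slc17a6 in NB2, and ratios of 0.0429 to 0.0701 in NB1, 0.385 to 0.512 in GCimm1 and 2.83 to 3.3 in GCmat1. Without the early nuclei NB1 had 34.4 CPM of Gad1 and 2.31 of Gad2. Per kilobase the ratio was 0.138 in RGL, 0.0878 in NB1, 0.856 in GCimm1, 2.06 in GCimm2, 3.23 in GCyoung and 5.09 in GCmat1. Nuclei with both groups made up 1.21%, 2.09%, 2.66%, 2.53% and 1.70% from NB1 to GCmat1 with thinning, and 0.233%, 1.43%, 3.06%, 3.31% and 2.68% at 2 UMIs or more. With a library left out they lay at 3.39% to 4.88%, 9.82% to 12.8%, 16.1% to 26.5%, 20.3% to 24.0% and 18.7% to 23.8%. Slc12a5 passed 50% of its highest level at 21 with bins of width 2. Of the 30 most alike genes, Spearman's rho shared 9 and cluster totals 3. The causes were not tested. Low counts limited Gad2, Slc32a1 and every progenitor value.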
